A study of Homo sapiens with 4 samples.

Results

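Integrin subunits are the chains of the receptors by which cells hold on to the extracellular matrix. The 10 subunit genes described here were matched by symbol in the deposited FPKM table and by gene identifier in the deposited read counts. They were 6 α chains (ITGA1, ITGA2, ITGA3, ITGA5, ITGA6 and ITGAV) and 4 β chains (ITGB1, ITGB3, ITGB4 and ITGB5), out of 58735 genes in the tables and 26 integrin subunit genes in all. RNA had been sequenced from MHCC-97H cells, an established metastatic hepatocellular carcinoma (HCC) line with wild-type genotype in every library, and each of 4 conditions had 1 library. Cells had been given PBS for 24 h, or for the same time 2 μg of migrasomes (Migs), the membrane vesicles that migrating cells leave behind on their retraction fibers. The Migs came from MHCC-97H cells in normoxia (normo-Migs), from that line in hypoxia (hypo-Migs), or from CD147-knockout MHCC-97H cells, also in hypoxia (CD147KO-Migs). The normoxic origin of the normo-Migs is that of the sample labels and of the study's detailed supplementary methods. A passage of its main methods gives hypoxia for them, and the labels were followed. The knockout of CD147, encoded by BSG, was thus in the cells that released the vesicles and not in the cells sequenced, so the reads of BSG do not check the labels.

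An integrin is a pair of an α chain and a β chain, both of which span the membrane. The α chain largely sets the ligand. The short tail of most β chains, though not of ITGB4, binds talin and kindlin, which link the receptor to actin and switch it to its active state. ITGB1 is the common partner of ITGA1 and ITGA2, which bind collagen, of ITGA3 and ITGA6, which bind laminin, and of ITGA5, which binds the RGD sequence of fibronectin. ITGAV pairs with ITGB1, ITGB3 or ITGB5 to bind RGD-containing ligands such as vitronectin, and ITGB4 pairs with ITGA6 in hemidesmosomes. Integrins are also abundant on migrasomes, where ITGA5 serves as a marker. What was measured here was the mRNA of the cells that received the Migs, not the protein on vesicles or cells.

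The 4 libraries held from 33882496 to 40285223 reads on genes. The reads of 2 libraries were compared as the log2 ratio after TMM scaling, with an exact 95% interval. The interval covers counting error only, the sole error that 1 library per condition gives. The reads carried no molecular identifiers, so repeated reads of a molecule were not told apart. A difference whose interval leaves out 0 is called beyond counting error, and a log2 ratio of at least 1 or at most -1 is called past 2-fold. With 1 library per condition no p-value was computed, and each ratio compares libraries and not conditions. The PBS-labelled library stood apart from the others. In it 251 genes had at most 3 reads although each Mig library had at least 100, and no other library had such a gene. KRT19, a keratin of biliary and other simple epithelia, had 11287 reads there and 75, 52 and 32 with normo-Migs, hypo-Migs and CD147KO-Migs, and the summed FPKM of 5 biliary markers was 477 against 135 to 148. This list was mixed, since 2 of its genes were past 2-fold lower in every Mig library and 2 past 2-fold higher, the latter with SOX9 at 7 and then 327, 441 and 391 reads. A list of 9 fibroblast markers summed to 3.2 FPKM in the PBS-labelled library and to 27.3 to 29.2 in the Mig libraries. Of the 7 with at least 10 reads in a library, 5 were past 2-fold higher in every Mig library and none was past 2-fold lower. THY1 had 11 and then 1681, 2082 and 1859 reads, and PDGFRB 70 and then 1747, 2446 and 2166. In the list, 3 and then 2 genes had no more than 3 reads, among them COL1A2 at 2 and then 0 reads. Of 14 hepatocyte and HCC markers, the defining genes ALB, AFP, TTR, APOB and GPC3 had 0 reads in every library, so the liver identity given in the labels is not seen in them. The sum of that list, mostly the keratins KRT8 and KRT18, was 774 FPKM in the PBS-labelled library and 1090 to 1300 in the Mig libraries. Lists for endothelial cells (0.585 to 0.837 FPKM in sum) and leukocytes (0.3 to 1.99, with CD3E and HBB at 0 in every library) stayed low. All 4 carry a single batch number in the labels. The part of these differences in any ratio to the PBS-labelled library was not tested. In RNA from whole cultures, fewer cells that express a gene and less of its RNA per cell cannot be told apart.

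The promoters of 4 members are shown first, because these genes carried the contrasts described next: ITGA6 was the member past 2-fold lower, ITGAV and ITGB1 were higher in the Mig libraries, and ITGA5 is the migrasome marker. Each is the 250 bases before the start in the RefSeq promoter table (GRCh38.p14), read 5′ to 3′ on the gene's strand. Capitals mark 3 motifs. The E-box is CANNTG, which reads the same on both strands. The core of the hypoxia response element, searched on both strands, is ACGTG. The GC box, also searched on both strands, is GGGCGG, or CCGCCC when read from the other strand.
ITGA6, chr2:172427086-172427335, plus strand: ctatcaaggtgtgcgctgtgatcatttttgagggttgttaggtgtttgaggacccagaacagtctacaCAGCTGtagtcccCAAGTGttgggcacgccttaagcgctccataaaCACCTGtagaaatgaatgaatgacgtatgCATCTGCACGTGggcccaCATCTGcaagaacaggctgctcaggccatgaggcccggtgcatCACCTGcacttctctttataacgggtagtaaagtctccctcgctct
ITGAV, chr2:186589806-186590055, plus strand: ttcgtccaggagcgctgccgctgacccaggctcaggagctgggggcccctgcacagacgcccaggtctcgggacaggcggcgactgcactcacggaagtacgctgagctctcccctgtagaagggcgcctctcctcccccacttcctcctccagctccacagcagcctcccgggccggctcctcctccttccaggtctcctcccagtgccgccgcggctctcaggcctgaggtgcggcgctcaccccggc
ITGB1, chr10:32958231-32958480, minus strand: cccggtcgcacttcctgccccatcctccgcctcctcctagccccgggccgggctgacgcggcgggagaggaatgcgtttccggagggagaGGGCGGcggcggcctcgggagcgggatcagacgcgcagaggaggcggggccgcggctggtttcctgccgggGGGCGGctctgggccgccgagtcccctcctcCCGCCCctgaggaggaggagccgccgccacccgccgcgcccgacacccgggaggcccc
ITGA5, chr12:54419267-54419516, minus strand: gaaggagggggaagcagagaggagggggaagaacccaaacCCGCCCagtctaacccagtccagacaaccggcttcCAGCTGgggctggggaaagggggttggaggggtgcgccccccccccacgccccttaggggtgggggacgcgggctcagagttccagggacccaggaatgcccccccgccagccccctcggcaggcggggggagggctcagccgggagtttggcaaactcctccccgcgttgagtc
The window of ITGA6 held 7 E-boxes and 2 matches to ACGTG, which are both strands of a single CACGTG and overlap an E-box, and its GC content was 50.8%. That of ITGAV held none of these motifs at a GC content of 70.8%. The ITGB1 window held 3 GC boxes at 78.4% GC, and the start it precedes lies 47562 bases downstream of the 5′ end of the gene in GENCODE 29. For ITGA5 there was 1 E-box and 1 GC box at 70.0% GC. The start that this window precedes lies 194 bases downstream of the 5′ end of the gene in GENCODE 29, so most of the window is within the annotated gene. Among all 35116 promoters of the same length in the table, 61.8% held an E-box, 18.5% ACGTG and 42.6% a GC box, with a mean GC content of 57.2%. Of the 10 members, 7 had an entry in the table, and ITGA3, ITGB3 and ITGB4 did not. These matches describe letters in a window and were not linked to the RNA differences.

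ITGB1 was the most abundant member in every library when compared per length. Its FPKM was 99.1 in the PBS-labelled library and 155, 146 and 141 with normo-Migs, hypo-Migs and CD147KO-Migs, from 20606, 31994, 35595 and 29962 reads. All 3 Mig libraries were thus above the PBS-labelled library. The log2 ratios to it were 0.65 (0.63 to 0.68) for normo-Migs, 0.57 (0.55 to 0.60) for hypo-Migs and 0.52 (0.49 to 0.54) for CD147KO-Migs. ITGB1 (ENSG00000150093) lies on chr10:32900319-33005792, minus strand.

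**Figure D1:**
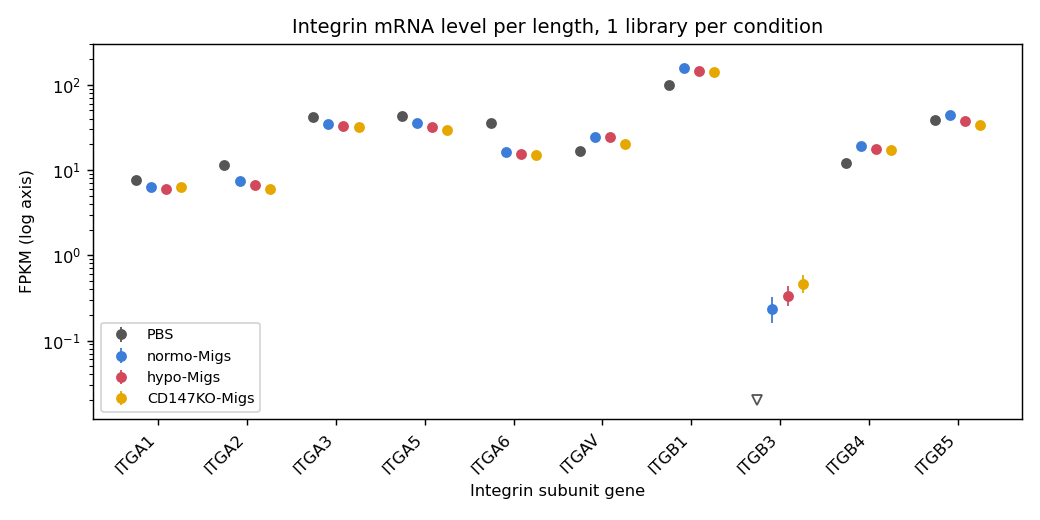
Level of each of the 10 integrin subunits in the 4 libraries, as FPKM on a log axis, with 1 point per library. ITGB1 is highest in every library (99.1 to 155), ITGB3 lies below 0.5 in the Mig libraries, and the open triangle marks its 0 reads in the PBS-labelled library.

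The other β chains fell into 3 ranges. ITGB5 (ENSG00000082781, chr3:124761948-124901418, minus strand), the vitronectin-binding partner of ITGAV, was second among them at 38.3 FPKM in the PBS-labelled library and 44.4, 37.3 and 33.6 with normo-Migs, hypo-Migs and CD147KO-Migs, from 8535, 9829, 9745 and 7662 reads. It was the member whose side of the PBS-labelled library varied: higher with normo-Migs (log2 0.22, 0.18 to 0.26), within counting error with hypo-Migs (-0.03, -0.07 to 0.02) and lower with CD147KO-Migs (-0.18, -0.22 to -0.13). ITGB4 (ENSG00000132470, chr17:75721328-75757818, plus strand), the hemidesmosomal chain, was at 12.1, 19.1, 17.7 and 17.1 FPKM in the same order, from 2826, 4447, 4832 and 4084 reads. Its Mig libraries were all higher than the PBS-labelled library, by log2 0.67 (0.60 to 0.74), 0.56 (0.49 to 0.62) and 0.51 (0.44 to 0.58). The gene overlaps GALK1 on the opposite strand, without shared exonic bases, and GALK1 had 1221 to 1547 reads.

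ITGB3 (ENSG00000259207, chr17:47253846-47311816, plus strand), the β chain of the vitronectin receptor and of the platelet fibrinogen receptor, was close to absent. It had 0 reads in the PBS-labelled library, which allows up to 0.0885 CPM (reads scaled to a library of 1000000), and 35, 60 and 72 reads with normo-Migs, hypo-Migs and CD147KO-Migs. Against a floor of 3 reads in the PBS-labelled library it was at least 11.8-fold, 17.2-fold and 23.7-fold higher in the Mig libraries. Even so its FPKM was 0.232, 0.337 and 0.463, far below every other member. Of its exonic bases, 2266 (51.6%) are shared with AC068234.1 on the same strand, which had 0 reads in every library. How reads in shared exons were counted is not given in the sources used here, so the level of ITGB3 per length is uncertain.

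Among the α chains, the laminin receptors ITGA3 and ITGA6 were both lower in the Mig libraries, to unlike degrees. ITGA6 (ENSG00000091409, chr2:172427354-172506282, plus strand) had 7998 reads in the PBS-labelled library and 3673, 4091 and 3431 in the Mig libraries, or 35.4 FPKM against 16.4, 15.5 and 14.9. The Mig libraries lay close together and well under the PBS-labelled library. With log2 ratios of -1.10 (-1.16 to -1.05), -1.18 (-1.24 to -1.13) and -1.24 (-1.30 to -1.18), it was past 2-fold lower with normo-Migs, hypo-Migs and CD147KO-Migs alike. Among the 6960 genes that averaged at least 1000 reads, these ratios stood at the percentiles 2.60, 2.28 and 1.93. ITGA3 (ENSG00000005884, chr17:50055968-50090481, plus strand) was at 42.3 FPKM in the PBS-labelled library and at 34.8, 32.6 and 31.9 in the Mig libraries, from 14329, 11733, 12919 and 11068 reads. Its log2 ratios were smaller, at -0.27 (-0.31 to -0.23), -0.37 (-0.40 to -0.33) and -0.39 (-0.43 to -0.36).

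The collagen receptors were the least abundant of the α chains per length, and both were lower in the Mig libraries. ITGA1 (ENSG00000213949, chr5:52787896-52959210, plus strand) was at 7.69 FPKM in the PBS-labelled library and at 6.25, 6.02 and 6.31 with normo-Migs, hypo-Migs and CD147KO-Migs, from 4937, 3986, 4526 and 4139 reads. Its log2 ratios were -0.29 (-0.35 to -0.23), -0.34 (-0.40 to -0.28) and -0.28 (-0.34 to -0.22), so the Mig libraries hardly differed. Of the exonic bases of ITGA1, 475 (2.56%) are shared with PELO on the same strand, which had 1392 to 2758 reads. ITGA2 (ENSG00000164171, chr5:52989326-53094779, plus strand) was at 11.5 FPKM in the PBS-labelled library and at 7.44, 6.75 and 5.98 in the Mig libraries, from 3138, 2023, 2161 and 1673 reads. Here the ratios were -0.61 (-0.70 to -0.53), -0.76 (-0.84 to -0.68) and -0.93 (-1.01 to -0.84), and CD147KO-Migs gave the lowest value of the 4 libraries.

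The fibronectin receptor chain ITGA5 and the RGD receptor chain ITGAV went opposite ways. ITGA5 (ENSG00000161638, chr12:54395261-54419460, minus strand) had 11115 reads in the PBS-labelled library and 9364, 9888 and 7811 with normo-Migs, hypo-Migs and CD147KO-Migs, or 42.4, 36.0, 32.2 and 29.2 FPKM. It was below the PBS-labelled library by log2 -0.23 (-0.27 to -0.19), -0.39 (-0.43 to -0.35) and -0.53 (-0.57 to -0.49). ITGAV (ENSG00000138448, chr2:186590065-186680901, plus strand) was at 16.8 FPKM in the PBS-labelled library and at 24.2, 24.5 and 20.3 in the Mig libraries, from 4757, 6841, 8157 and 5881 reads. It was the α chain that was higher in all 3 Mig libraries, by 0.54 (0.49 to 0.60), 0.56 (0.51 to 0.61) and 0.28 (0.23 to 0.34).

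**Figure D2:**
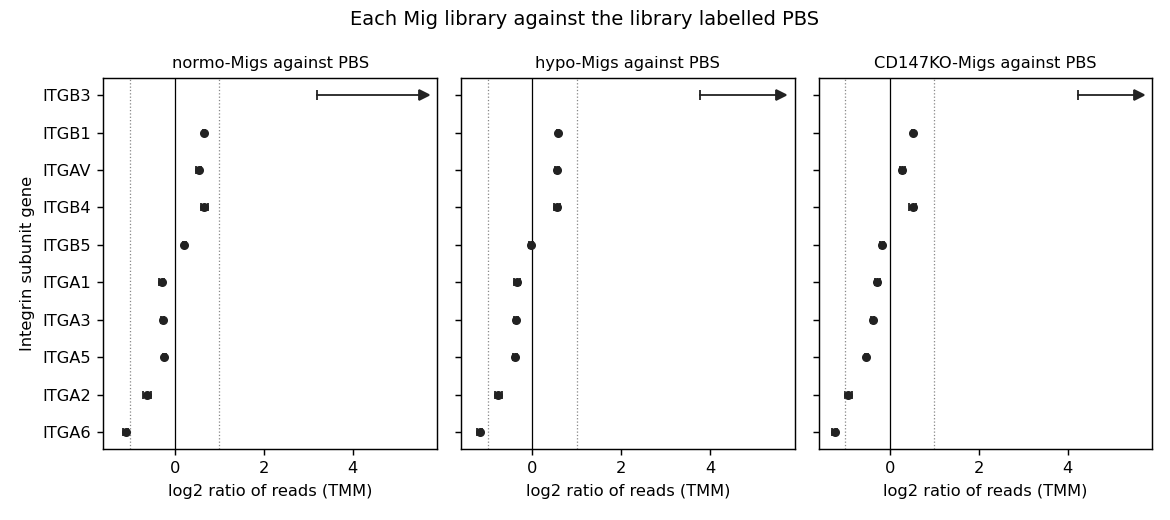
Log2 ratio of each member in each Mig library to the PBS-labelled library, after TMM scaling, with exact 95% intervals for counting error. Dotted lines mark 2-fold, ITGA6 lies past -1 in all 3 comparisons, and ITGB3, with 0 reads in the PBS-labelled library, is drawn as a lower bound with an arrow.

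The members past 2-fold against the PBS-labelled library were few. For each kind of Migs, 1 of the 10 members was past 2-fold higher (ITGB3) and 1 was past 2-fold lower (ITGA6). Of the 19895 genes that reached 10 reads in any library, 30.2%, 30.5% and 30.3% were past 2-fold in either direction with normo-Migs, hypo-Migs and CD147KO-Migs. Higher were 18.1%, 18.9% and 18.3% of them, and lower 12%, 11.6% and 12%. At the depth of 9 of the members, an average of at least 1000 reads, the share of genes past 2-fold in either direction was 9.99%, 10.6% and 10.4%, and ITGA6 was the member of that depth past it. The median log2 ratio of the members was 0.00, -0.18 and -0.23, against 0.03, 0.04 and 0.03 for all genes tested, and it was the same with ITGB3 at its lower bound. The 3 comparisons share the PBS-labelled library, so a departure in it enters all of them.

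By chain, the sum of the 6 α members was 156 FPKM in the PBS-labelled library and 125, 118 and 108 with normo-Migs, hypo-Migs and CD147KO-Migs. The sum of the 4 β members was 149, 219, 202 and 192 FPKM. The α sum was thus highest, and the β sum lowest, in the PBS-labelled library, whereas all members together took a like share of the reads, 0.231%, 0.243%, 0.228% and 0.216%. ITGB1, the shared partner, had 0.635 times the FPKM of the 6 α chains in the PBS-labelled library and 1.24, 1.24 and 1.30 times in the Mig libraries. Relative to ITGA5 alone it was 2.34 times as abundant in the PBS-labelled library and 4.31, 4.54 and 4.84 times in the Mig libraries. These are ratios of mRNA, and pairs of chains at the membrane were not measured here.

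Within the α chains, ITGA6 and ITGAV changed places. ITGA6 made up 22.7% of the α FPKM in the PBS-labelled library and 13.1%, 13.2% and 13.7% in the Mig libraries, while ITGAV made up 10.7% and then 19.4%, 20.9% and 18.7%. ITGA3 (27.1% to 29.4%) and ITGA5 (26.9% to 28.7%) were the leading α chains throughout, close to each other per length. Counted as reads without regard to length, ITGA6 was at 17.3% and then 9.76% to 10.1%, ITGAV at 10.3% and then 17.3% to 19.5%, and ITGA3 (30.9% to 32.6%) above ITGA5 (23.0% to 24.9%). Within the β chains, ITGB1 went from 66.3% of the FPKM to 70.8%, 72.6% and 73.4%, and ITGB5 went from 25.6% to 20.3%, 18.5% and 17.5%.

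**Figure D3:**
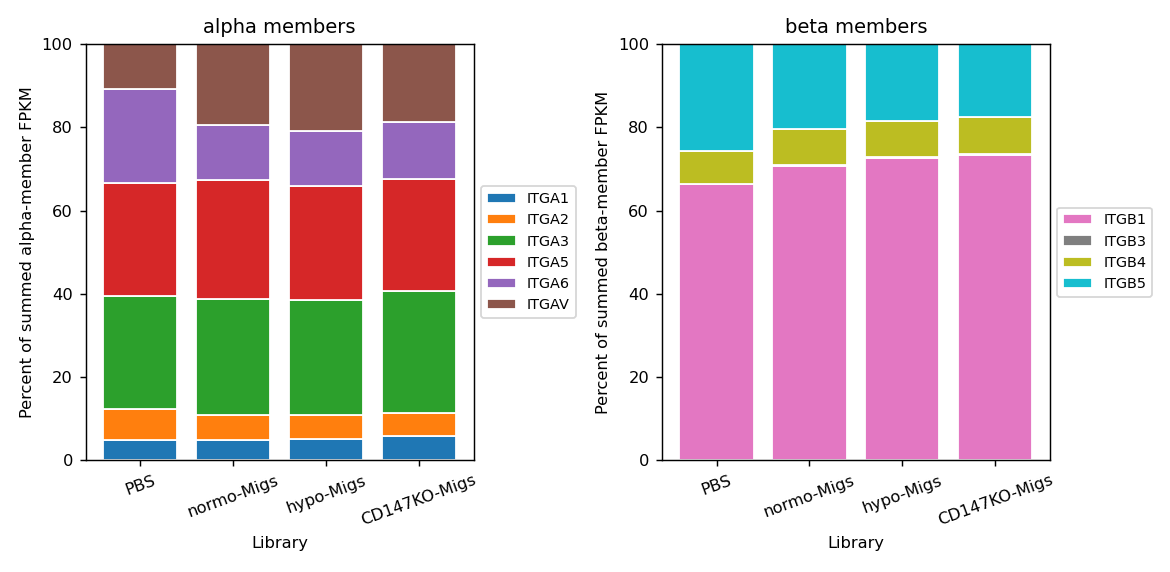
Share of each α chain in the summed FPKM of the 6 α members, and of each β chain in that of the 4 β members, as stacked bars from 0 to 100% with 1 bar per library. ITGA6 takes 22.7% of the α sum in the PBS-labelled library and 13.1% to 13.7% in the Mig libraries, and ITGB3, at most 0.241% of the β sum, is too thin to be seen.

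The Mig libraries can be compared without the PBS-labelled library, and differences between them were small. No member was past 2-fold between any 2 of them, against 9.34% of all genes tested between hypo-Migs and normo-Migs, 9.12% between hypo-Migs and CD147KO-Migs and 9.69% between CD147KO-Migs and normo-Migs. Among genes that averaged at least 1000 reads these shares were 0.0287%, 0.0144% and 0.0287%, so a count of 0 is what nearly any gene of that depth gave. The 9 members averaging at least 1000 reads, all but ITGB3, are better set against the 6960 genes of that depth. The central 95% of those genes lay between log2 -0.22 and 0.21 for hypo-Migs against normo-Migs, -0.22 and 0.21 against CD147KO-Migs, and -0.23 and 0.23 for CD147KO-Migs against normo-Migs.

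Set against normo-Migs, hypo-Migs gave lower values beyond counting error for 7 of the 10 members, none was higher, and ITGA1, ITGAV and ITGB3 were within counting error. Of all genes tested, 34.9% were beyond counting error in either direction, as were 47.6% of those averaging at least 1000 reads. Lower ones made up 28.8% of the latter, against 7 of the 9 members of that depth. The sizes were small. ITGB5 differed most of these 7, at log2 -0.25 (-0.29 to -0.21), which was percentile 1.67 among genes of that depth, followed by ITGA5 at -0.16 (-0.20 to -0.12), percentile 8.07. ITGB1, for all its reads, was at -0.08 (-0.10 to -0.06). The median log2 ratio was -0.09 for the members and 0.00 for all genes tested.

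Between hypo-Migs and CD147KO-Migs, the comparison that bears on CD147 in the vesicles, 5 members were higher with hypo-Migs beyond counting error, 1 was lower and 4 were within it. All genes tested were beyond counting error in 35% of cases, and those averaging at least 1000 reads in 46.3%, with 23.4% higher. ITGAV stood out most, at log2 0.28 (0.23 to 0.32) from 8157 and 5881 reads, percentile 99.2 among genes of that depth. ITGA2 at 0.17 (0.08 to 0.27), ITGB5 at 0.15 (0.11 to 0.19), ITGA5 at 0.14 (0.10 to 0.19) and ITGB1 at 0.05 (0.03 to 0.07) were higher too, each within the central 95% of those genes. ITGA1 was lower by a little, at -0.07 (-0.13 to -0.01). The laminin chains ITGA3, ITGA6 and ITGB4 had intervals that held 0, from 0.03 (-0.01 to 0.06) to 0.06 (-0.01 to 0.12), and no difference was detectable in them at this depth. ITGB3, at -0.45 (-0.98 to 0.05), had too few reads for a narrower statement. The median was 0.05 for the members and 0.00 for all genes tested.

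Between CD147KO-Migs and normo-Migs, 8 members were lower with CD147KO-Migs beyond counting error, ITGB3 was higher and ITGA1 was within it. These Migs differ both in the oxygen of the culture that released them and in the CD147 genotype of its cells, which cannot be told apart here. Among all genes tested 34.5% were beyond counting error, and 46.6% of those averaging at least 1000 reads, of which lower ones were 28.6% of the genes of that depth. ITGB5 at log2 -0.40 (-0.44 to -0.36), ITGA2 at -0.31 (-0.41 to -0.22), ITGA5 at -0.30 (-0.34 to -0.26) and ITGAV at -0.26 (-0.31 to -0.21) lay outside the central 95% of those genes, at percentiles 0.216, 0.647, 0.761 and 1.47. ITGB3 was at 0.96 (0.40 to 1.63), from 72 and 35 reads. Without the prior count that the log2 ratios add, its ratio was 2, so its place under the 2-fold threshold rests on that setting. The median was -0.15 for the members and 0.00 for all genes tested.

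These 3 comparisons share libraries with each other and are not independent. Seen by library, normo-Migs were highest and CD147KO-Migs lowest of the Mig libraries for 7 members, namely ITGA2, ITGA3, ITGA5, ITGA6, ITGB1, ITGB4 and ITGB5. ITGAV was highest with hypo-Migs and lowest with CD147KO-Migs, and ITGA1 and ITGB3 were highest with CD147KO-Migs. The spread over the 3 libraries ran from log2 0.07 for ITGA1 to 0.40 for ITGB5 among the 9 deeper members, and the interval alone cannot say whether new cultures of a single condition would differ as much.

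**Figure D4:**
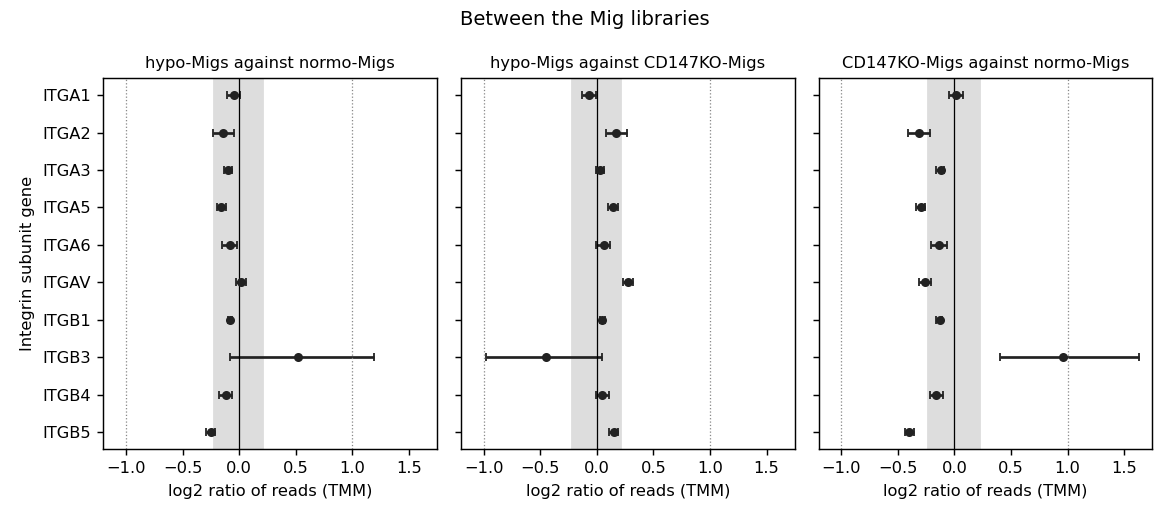
Log2 ratio of each member between the Mig libraries, in 3 comparisons, after TMM scaling and with exact 95% intervals for counting error. The grey band holds the central 95% of genes that averaged at least 1000 reads (about -0.22 to 0.21), dotted lines mark 2-fold, and ITGB5, ITGA2, ITGA5 and ITGAV lie below it for CD147KO-Migs against normo-Migs.

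The 3 protein-coding genes whose profile over the 4 libraries lay nearest to that of ITGA5 were HYOU1, DUS2 and OGFRL1, at Euclidean distances of 0.029, 0.0446 and 0.052 between log2 CPM values centred on their mean. They were taken from 11441 genes that averaged at least 100 reads, of which 690 lay within 0.2 of ITGA5, so over so few libraries the nearness of a profile says little about a single gene.

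The other 16 integrin subunits held few reads, and the 10 members took 95.8% of all integrin reads in the PBS-labelled library and 97.2% to 97.8% in the Mig libraries. Of the 16, 10 had at least 10 reads in a library. Against the PBS-labelled library, 4, 3 and 3 of these were past 2-fold higher with normo-Migs, hypo-Migs and CD147KO-Migs, and 3, 2 and 2 past 2-fold lower, beside 18.1%, 18.9% and 18.3% of all genes tested higher and 12%, 11.6% and 12% lower. ITGB8, an ITGAV partner that binds latent TGF-β, had 2059 reads in the PBS-labelled library and 308, 382 and 398 in the Mig libraries, a log2 ratio of -2.64 (-2.81 to -2.49) with hypo-Migs. ITGA2B, the platelet partner of ITGB3, had 0 reads in the PBS-labelled library and 156, 114 and 151 in the Mig libraries, at least 52.7-fold, 32.7-fold and 49.6-fold higher. Both chains of the platelet receptor thus had reads in the Mig libraries and none in the PBS-labelled library, at levels far below the other members. Both reached 10 reads through the Mig libraries only. ITGA2B is among the 251 genes with at most 3 reads in the PBS-labelled library and at least 100 in each Mig library. The pattern is therefore not particular to these chains, and a link between them was not tested.

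ITGA7, a laminin receptor chain of muscle, went from 114 reads to 355, 510 and 484 (log2 1.64, 1.93 and 2.05), and the collagen-binding ITGA11 from 12 to 65, 59 and 70. The leukocyte chain ITGB2 had 281 reads in the PBS-labelled library and 171, 194 and 135 in the Mig libraries, while its partners ITGAX and ITGAD had 20, 0, 14 and 12 reads and 36, 12, 17 and 30 reads. ITGAE, which binds E-cadherin, was steadier at 902, 779, 862 and 809 reads. ITGB6, an epithelial partner of ITGAV, had 8, 35, 12 and 18 reads, and the collagen-binding ITGA10 18, 9, 20 and 22. ITGA4, ITGA8, ITGA9, ITGAL, ITGAM and ITGB7 stayed under 10 reads in every library.

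**Figure D5:**
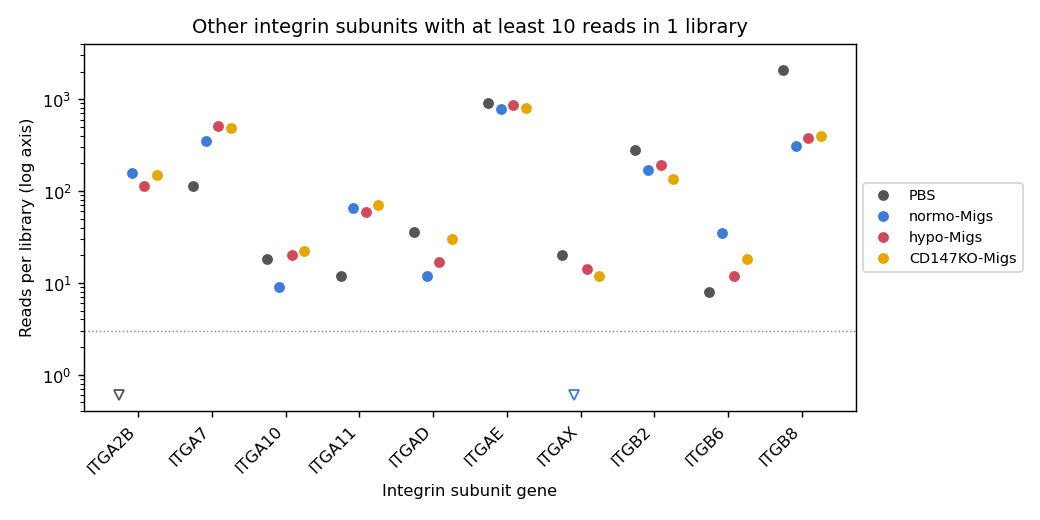
Reads of the 10 other integrin subunits with at least 10 reads in a library, on a log axis, with 1 point per library. The dotted line marks the floor of 3 reads, open triangles mark 0 reads, and ITGB8 falls from 2059 reads in the PBS-labelled library to 308 to 398 in the Mig libraries.

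Of the genes that work with integrins, 25 cytoplasmic adaptors and activators were tested. For each kind of Migs 4 were past 2-fold higher and 2 past 2-fold lower against the PBS-labelled library. Of all genes tested, 18.1%, 18.9% and 18.3% were higher with normo-Migs, hypo-Migs and CD147KO-Migs, and 12%, 11.6% and 12% lower. No adaptor was past 2-fold between Mig libraries, where 9.12% to 9.69% of all genes tested were. The kindlins, which bind β tails next to talin, moved apart: FERMT1 had 2106 reads in the PBS-labelled library and 1026, 998 and 974 in the Mig libraries, and FERMT2 2258 and then 4983, 6123 and 5055. SRC, a kinase of focal adhesions, had 122 reads in the PBS-labelled library and 1556, 1669 and 1581 in the Mig libraries, a log2 ratio of 3.54 (3.29 to 3.83) with hypo-Migs. LIMS2, an adaptor of the ILK complex, was, of the adaptors averaging at least 100 reads, the most different between hypo-Migs and normo-Migs, at 0.34 (0.13 to 0.55) from 470 and 315 reads. Of the 3 inactivators, DOK1 had 337, 163, 205 and 160 reads, whereas SHARPIN (1279, 1123, 1274 and 1176) and ITGB1BP1 (3014, 3229, 3948 and 3328) moved less.

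Among 26 ligand genes tested, 8, 9 and 8 were past 2-fold higher than in the PBS-labelled library with normo-Migs, hypo-Migs and CD147KO-Migs, and 2, 3 and 3 lower. Of all genes tested, 18.1%, 18.9% and 18.3% were higher and 12%, 11.6% and 12% lower. Between Mig libraries 2 ligands were past 2-fold higher with hypo-Migs than with normo-Migs, and 2 than with CD147KO-Migs. None differed past 2-fold between CD147KO-Migs and normo-Migs. In the same order, 9.34%, 9.12% and 9.69% of all genes tested were past 2-fold in either direction. NPNT, which encodes the matrix ligand nephronectin, had 7181 reads in the PBS-labelled library and 4, 27 and 5 in the Mig libraries. It was among the 2 ligands higher with hypo-Migs in both comparisons, on these few reads. SPP1, the RGD ligand osteopontin, had 0 reads in the PBS-labelled library and 428, 408 and 463 in the Mig libraries, at least 145-fold, 117-fold and 152-fold higher. EDIL3, a further RGD ligand, had 15 reads and then 615, 806 and 582. FN1, the ligand of ITGA5 (named after its values were seen), had 548 reads and then 15712, 18900 and 13976. FN1 and ITGA5 thus lay on opposite sides of the PBS-labelled library.

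Of 15 membrane partners, which include tetraspanins and CD147, 1, 1 and 2 were past 2-fold higher and none lower against the PBS-labelled library. Of all genes tested, 18.1%, 18.9% and 18.3% were higher, and 12%, 11.6% and 12% lower. No partner differed past 2-fold between Mig libraries, where 9.12% to 9.69% of all genes tested did. CD82, a tetraspanin, had 273 reads in the PBS-labelled library and 838, 1105 and 1094 in the Mig libraries. LGALS3, a lectin that binds integrin glycans, had 5222 and then 9737, 11859 and 10853. TSPAN4, a tetraspanin of migrasomes, had 3359 and then 2066, 2061 and 2193, and its ratio between hypo-Migs and normo-Migs was log2 -0.24 (-0.33 to -0.15).

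The hemidesmosome list held 7 genes beside the members ITGA6 and ITGB4. With normo-Migs 1 was past 2-fold higher and 1 lower than in the PBS-labelled library, and with hypo-Migs and CD147KO-Migs 1 was higher and 2 lower. Of all genes tested with hypo-Migs, 18.9% were higher and 11.6% lower. COL17A1, the transmembrane collagen of hemidesmosomes, had 1117 reads in the PBS-labelled library and 62, 47 and 55 in the Mig libraries. LAMA3, a laminin α chain, had 1273 and then 641, 665 and 626 reads. ITGA6 and ITGB4, the integrin pair of hemidesmosomes, lay on opposite sides of the PBS-labelled library.

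The medians of these lists stayed nearer to 0 than their most changed genes. In the order normo-Migs, hypo-Migs and CD147KO-Migs against the PBS-labelled library, the median log2 ratio was 0.16, 0.16 and 0.15 for adaptors and activators, 0.12, 0.21 and 0.27 for ligands, and 0.26, 0.21 and 0.24 for membrane partners. It was -0.17, -0.22 and -0.14 for the inactivators, -0.49, -0.54 and -0.33 for the hemidesmosome genes, and -0.44, -0.17 and 0.03 for the other integrin subunits, against 0.03, 0.04 and 0.03 over all genes tested. With hypo-Migs 9 of 26 ligands and 4 of 25 adaptors were past 2-fold higher, beside 18.9% of all genes tested.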

How the data were processed

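RNA-seq libraries of MHCC-97H cells, 1 per condition, were described by 2 deposited tables. The authors' raw counts give the reads per gene without normalization, and the authors' FPKM divides them by gene length and library size. The submitters' processing notes name CASAVA 1.8, fastp, HISAT2 2.0.5, featureCounts 1.5.0-p3 and hg38, and the strand setting is not given in the sources used here. Coordinates of the 10 members match GENCODE 29. Library sizes were the totals of counts, with TMM factors of 1.02 (PBS), 0.986 (normo-Migs), 0.996 (hypo-Migs) and 0.999 (CD147KO-Migs) from genes with at least 10 reads in a library. Log2 ratios used a prior count of 2 (edgeR 4.0.16, R 4.3.3), and their 95% intervals are exact (Clopper-Pearson on the reads of 2 libraries). The script was checked on simulated counts. Levels of different genes were compared in FPKM only. Quasi-likelihood tests and the DESeq2 test need replicates and were not run. Alternatives were DESeq2 size factors (DESeq2 1.42.0), upper-quartile scaling, library totals, a prior count of 0.25, other filters, a 1.5-fold threshold, 99% intervals, log2(FPKM + 1), log2(FPKM + 0.1) and scaling on the Mig libraries alone. Promoter sequences and figures were handled in Python 3.11.15. The members, gene lists and comparisons were chosen with earlier results of these data known. Named from each list were up to 3 genes with the largest ratio of hypo-Migs to PBS and the 1 with the largest ratio to normo-Migs, among genes averaging at least 100 reads. A gene that this rule also names is not reported here.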

Additional observations from a re-analysis of the deposited data

How the results depend on the processing

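The members past 2-fold against PBS numbered 2 with each kind of Migs. They numbered 1 in each comparison when at least 10 reads were required in every library, since this leaves ITGB3 out, and also 1 on log2(FPKM + 1). A threshold of 1.5-fold gave 5 members with normo-Migs, and 1 between CD147KO-Migs and normo-Migs where none passed 2-fold. All genes past 2-fold numbered 6003, 6067 and 6033 against PBS (normo-Migs, hypo-Migs, CD147KO-Migs), and 1858, 1814 and 1928 between Mig libraries (hypo-Migs to normo-Migs, hypo-Migs to CD147KO-Migs, CD147KO-Migs to normo-Migs). In the same order they were 10692, 9642, 10675, 5112, 4966 and 5930 without a filter, 2680, 2755, 2744, 255, 231 and 265 with 10 reads in every library, 1619, 1674, 1658, 56, 80 and 66 on log2(FPKM + 1), and 9614, 9696, 9704, 3630, 3662 and 3676 at 1.5-fold. On log2(FPKM + 0.1) those between Mig libraries were 1021, 1005 and 1037. Members beyond counting error between Mig libraries stayed at 7, 6 and 9 under DESeq2 size factors, upper-quartile scaling, library totals and scaling on the Mig libraries alone, and were 6, 5 and 9 with 99% intervals. Of the log2 ratios of members, those that left their interval were 6 with library totals, 3 on log2(FPKM + 0.1) and 5 on log2(FPKM + 1), and none of these changed sign. ITGB3 moved most, to 0.30, 0.42 and 0.55 against PBS on log2(FPKM + 1), because an added 1 exceeds its FPKM. No paired analysis was possible because each condition had 1 library, and for the same reason no library could be left out of a condition.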
